A study of Mus musculus with 4 samples.

Results

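The genes described here are 43 of the 32285 genes in the count matrices, and they make up the unfolded protein response and the machinery that moves, folds and clears proteins in the endoplasmic reticulum (ER). They were chosen by name, from their known roles. They were followed in 4 cell classes of mouse liver (plasma-like, plasmacytoid dendritic-like, stellate-or-fibroblast-like and hepatocyte-like cells), in 2 diets and at 2 times.

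Proteins that are secreted or placed in membranes enter the ER through the Sec61 channel, lose their signal peptide, are folded with the help of chaperones and disulfide isomerases, and are sent to the proteasome when they fail to fold. When unfolded proteins build up, the ER sensors IRE1 (Ern1), PERK (Eif2ak3) and ATF6 start the unfolded protein response: IRE1 splices the Xbp1 messenger, ATF6 is cleaved to a transcription factor, and PERK slows translation while ATF4 is made. Plasma cells, which secrete antibody, are the textbook example of a cell that builds this machinery up, hepatocytes secrete most plasma proteins, and stellate cells and fibroblasts secrete collagen.

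The 4 libraries were 10x 5′ single-cell RNA libraries of liver non-parenchymal cells from male C57BL/6J mice, 8 weeks old at the start. Chow mice received regular chow for 12 or 24 weeks. Mice in the FAT-MASH model (a model of steatohepatitis with fibrosis and tumors) received a Western diet, a fructose and glucose solution to drink and a low weekly intraperitoneal dose of CCl4 (carbon tetrachloride, a liver toxin), also for 12 or 24 weeks, so that diet, sugar and toxin came together. The study itself examined uPAR expression. Each group was 1 library, so that diet within a week and week within a diet could not be tested, and no model over diet and week together was fitted. All intervals printed here are 95% and cover counting error only: they say nothing of the spread between mice. All livers were kept on ice overnight, digested with collagenase IV and DNase I and spun in Percoll, which removed most hepatocytes and set the share of each class.

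After doublet removal 71755 cells remained, 15333 to 21777 per library, with 44661724 to 89114923 unique molecular identifiers (UMIs) per library. The median cell had 1992.5 and 2084 UMIs in the chow libraries at 12 and 24 weeks, against 3084 and 3226 in the MASH libraries. Levels are therefore given in CPM, the UMIs of a gene for every 1000000 UMIs of the class. Pairs of libraries shared 507 to 796 barcodes, 2.67% to 4.02% of the smaller list. Doublet calls removed 20.2% of cells from the chow library at 24 weeks and 9.67% to 10.98% from the others.

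The class names were checked against their markers. No cluster was named as plasma cells, because the rule left any cluster that best matched the plasma cell markers unnamed. Plasma-like cells were instead taken one by one, where at least 10% of a cell's UMIs came from 392 immunoglobulin genes. This way of naming them was set after the clusters were seen. The 10% rule describes a range of cells and not a type: 11 cells lay at 10% to 15% and 7 cells lay just below, at 7.5% to 10%. Of the 149 plasma-like cells, 148 had a UMI of Jchain, 114 of Sdc1 (syndecan 1) and 97 of Tnfrsf17 (the receptor BCMA), while 58 also had one of the B cell gene Ms4a1 and 51 one of the T cell gene Cd3e. By cluster, 74 of the 149 lay in B cell clusters, 29 in unnamed and 14 in mixed ones. The rest lay in clusters of other classes, among them 6 each in T cell, endothelial and monocyte clusters. There were 26 and 33 plasma-like cells in the chow and MASH libraries at 12 weeks, and 55 and 35 at 24 weeks.

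The class taken from the stellate cell and fibroblast markers was led by Dcn, Col3a1, Col1a2 and Col1a1. Its stellate and pericyte markers Lrat, Reln and Rgs5 had 0 UMIs in both chow libraries, and Lrat had 11 and 15 UMIs in the MASH libraries. It is therefore called stellate-or-fibroblast-like. It held 91 and 307 cells at 12 weeks and 40 and 132 cells at 24 weeks, in chow and MASH.

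The hepatocyte-like cells (1361 and 429 at 12 weeks, 1959 and 620 at 24 weeks) carried all 10 hepatocyte markers in every library, but were shallow, with a median of 840 to 1428 UMIs. Alb had 3493 to 7427 CPM there. Their median mitochondrial share was 0.145% to 0.549%, against 0.273% to 0.686% in neutrophil-like and 2.59% to 3.93% in plasmacytoid dendritic-like cells. Whether they were intact hepatocytes was not tested. The plasmacytoid dendritic-like cells (405 and 542 at 12 weeks, 450 and 365 at 24 weeks) are immune cells known for secreting interferon.

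Many genes of the unfolded protein response carry an ER stress element, the binding site of NF-Y with ATF6 or XBP1. The letters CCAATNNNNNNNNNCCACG, read on both strands, were found in the promoter windows (250 bases before to 50 after the start, RefSeq, GRCm38.p6) of 9 of the 36 genes that had a window. They were found in 37 of 27025 genes of the same table (0.137%). The 9 genes are Hspa5, Hsp90b1, Dnajc3, Creld2, Pdia6, Calr, Canx, Syvn1 and Derl3: 4 chaperones or co-chaperones, 1 disulfide isomerase, both lectin chaperones and 2 degradation genes. The variant ERSE-II, ATTGG and CCACG with 1 base between them, was in the windows of Dnajb11 and Herpud1 and of 12 genes in all. The core CCACG, which is also part of the longer motifs, was in 75% of the 36 windows and in 35.5% of all genes.

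The 250 bases before the start are shown for 4 genes whose levels are described below: the chaperones Hspa5 (chr2:34771840-34772089, plus strand) and Hsp90b1 (chr10:86705445-86705694, minus strand, with 2 elements), the co-chaperone Creld2 (chr15:88819396-88819645, plus strand) and the degradation gene Derl3 (chr10:75893148-75893397, plus strand). Each is written 5′ to 3′ along its gene in GRCm38.p6, and capitals mark the CCAAT and CCACG ends of the element or, where it lies on the other strand, their reverse complements.
Hspa5: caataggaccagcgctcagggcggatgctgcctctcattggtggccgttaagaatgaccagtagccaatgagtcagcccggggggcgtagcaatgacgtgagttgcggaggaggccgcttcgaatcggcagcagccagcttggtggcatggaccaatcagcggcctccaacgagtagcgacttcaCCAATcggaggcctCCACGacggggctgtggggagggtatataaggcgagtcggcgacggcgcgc
Hsp90b1: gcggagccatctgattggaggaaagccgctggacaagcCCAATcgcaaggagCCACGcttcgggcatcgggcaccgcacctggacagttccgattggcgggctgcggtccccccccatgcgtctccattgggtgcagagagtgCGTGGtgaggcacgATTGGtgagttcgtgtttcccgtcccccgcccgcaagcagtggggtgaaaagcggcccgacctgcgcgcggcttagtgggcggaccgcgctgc
Creld2: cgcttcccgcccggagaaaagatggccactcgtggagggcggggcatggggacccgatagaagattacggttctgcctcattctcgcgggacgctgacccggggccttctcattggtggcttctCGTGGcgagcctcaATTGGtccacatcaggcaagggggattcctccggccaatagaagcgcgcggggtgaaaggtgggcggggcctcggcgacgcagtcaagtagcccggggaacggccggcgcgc
Derl3: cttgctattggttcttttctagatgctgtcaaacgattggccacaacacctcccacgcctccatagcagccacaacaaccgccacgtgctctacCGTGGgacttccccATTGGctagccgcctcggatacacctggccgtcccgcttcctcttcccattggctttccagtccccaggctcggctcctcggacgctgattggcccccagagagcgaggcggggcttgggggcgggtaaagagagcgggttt
In Hspa5 the element begins 65 bases before the start and lies on the gene's strand. In Creld2 and Derl3 it lies on the opposite strand. Of the 9 genes with the element, 8 had their highest mean level in plasma-like cells, against 13 of 27 whose window lacked it and 6 of 7 without a window in the table. With immunoglobulin genes left out of the total, these counts were 8 of 9, 22 of 27 and 7 of 7. By a stricter rule, every plasma-like library above every counted library of the other classes, they were 3 of 9, 10 of 27 and 4 of 7. No share of all genes stands beside these counts.

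The 43 genes together reached their highest level in plasma-like cells, in each of the 4 libraries and against all 14 other classes. Their summed level there was 23343 CPM in chow and 26466 CPM in MASH at 12 weeks, and 23051 and 18018 CPM at 24 weeks. Plasmacytoid dendritic-like cells had 10233 and 10416 CPM at 12 weeks and 9089 and 9892 CPM at 24 weeks. Stellate-or-fibroblast-like cells had 10199 and 11971 CPM at 12 weeks and 6568 and 7758 CPM at 24 weeks. These 2 classes overlapped each other, and neither reached the plasma-like range. Hepatocyte-like cells were lowest of all classes in every library, with 2881 and 3317 CPM at 12 weeks and 2604 and 2469 CPM at 24 weeks.

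**Figure D1:**
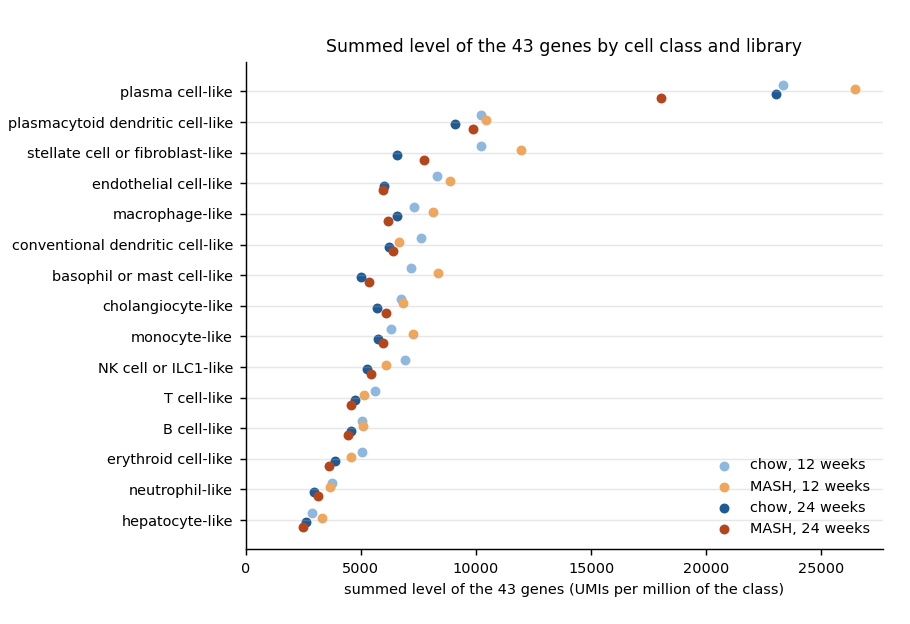
Summed level of the 43 genes in 15 cell classes, in CPM, with 1 point for each library (light blue and light orange for chow and MASH at 12 weeks, dark blue and brown at 24 weeks). The plasma-like points, from 18018 to 26466, lie to the right of every other point, and the hepatocyte-like points lie at the left.

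Immunoglobulin messages make up 36.8% to 45.8% of the UMIs of plasma-like cells, and so dilute every other gene there. With them left out of the total, the 43 genes summed to 33262 to 42409 CPM, and the class order changed for several genes, as given below for each. Single plasma-like cells were widely spread: in the chow library at 12 weeks they ran from 7530 to 86359 CPM, with a median of 19213.

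The spread of plasma-like cells within a library was wider than the difference between libraries. The libraries carried hashtags (3 in use at 12 weeks, 8 at 24 weeks) whose meaning is not stated in the labels. In the chow library at 12 weeks 3 hashtags with 7 plasma-like cells each gave 13424, 22462 and 35085 CPM. Plasmacytoid dendritic-like cells were even by comparison, at 9988 to 10720 CPM over the hashtags of the same library.

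Plasma-like cells had the highest mean level over libraries of any class for 27 of the 43 genes, and for 37 once immunoglobulin genes were left out. For 17 genes every plasma-like library lay above every counted library of all other classes: Hsp90b1, Dnajb11, Sdf2l1, Manf, Creld2, Pdia4, Xbp1, Ssr2, Ssr4, Spcs1, Spcs2, Herpud1, Sel1l, Edem1, Derl1, Derl3 and Mzb1. They cover chaperones, translocation, signal peptide removal and degradation. The share of all genes that meet the same rules in plasma-like cells was not counted, so the counts of 27, 37 and 17 have no background beside them.

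Among the chaperones, Hsp90b1 (GRP94, the ER member of the HSP90 family) had 4704 CPM in chow and 5557 CPM in MASH at 12 weeks, and 3460 and 1996 CPM at 24 weeks in plasma-like cells. Its mean there was 3.40 times that of the next class, plasmacytoid dendritic-like cells. Hspa5 (BiP, the main ER chaperone, which also holds the sensors inactive) had 1267, 1827, 1603 and 896 CPM in the same order, chow before MASH and 12 before 24 weeks. For Hspa5 the plasma-like range overlapped that of basophil-or-mast-like cells, at 1049 to 1722 CPM. Creld2 and Manf, both ER proteins made under stress, had 632 to 810 CPM and 798 to 1292 CPM in plasma-like cells. The mean of Creld2 was 7.09 times that of the next class.

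The order of classes for the disulfide isomerases depended on how the total was taken. Pdia4 was highest in plasma-like cells, at 665, 810, 744 and 448 CPM, 4.32 times the next class by its mean. Pdia3 (ERp57, the partner of the lectin chaperones) was highest in stellate-or-fibroblast-like cells, at 867, 851, 495 and 507 CPM. P4hb (PDI, which is also a subunit of collagen prolyl 4-hydroxylase) was highest there too, with 484, 609, 297 and 582 CPM against 283, 316, 320 and 313 CPM in plasma-like cells. Both genes' ranges in stellate-or-fibroblast-like cells overlapped those of the class next in order. With immunoglobulin genes left out of the total, plasma-like cells ranked 1 for both, with a mean of 721 against 680 CPM for Pdia3 and 511 against 494 CPM for P4hb. Calr (calreticulin), a lectin chaperone, was highest in plasma-like cells with 401 to 782 CPM, while Canx (calnexin), its membrane counterpart, ranked 10 of 15 there, and 3 with immunoglobulin genes left out.

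None of the 3 sensors was highest in plasma-like cells over all UMIs, but Ern1 and Atf6 were once immunoglobulin genes were left out of the total. Ern1 had 18.0, 30.6, 24.1 and 27.9 CPM in plasma-like cells and 31.2 to 37.8 CPM in plasmacytoid dendritic-like cells. Atf6 had 46.9 to 79.6 CPM against 57.1 to 85.1 CPM, and these ranges overlapped. Without immunoglobulin genes the means in plasma-like cells were 41.9 CPM for Ern1, against 40.3 CPM in NK-or-ILC1-like cells, the next class, and 104 CPM for Atf6, against 72.7 CPM in plasmacytoid dendritic-like cells. Eif2ak3 was highest in B-like cells on both scales.

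Of the transcription factors, Xbp1, which drives much of the secretory program, had 868, 765, 841 and 1106 CPM in plasma-like cells and 304 to 361 CPM in plasmacytoid dendritic-like cells. The groups did not overlap, and the ratio of means was 2.71. Xbp1 UMIs were found in 93.9% to 100% of plasma-like cells, against 10.3% to 11.5% of T-like cells, whose median depth was 2391 to 3172 UMIs against 15032.5 to 27082. Thinning every cell to 1000 UMIs gave 41.5% to 62.9% and 3.74% to 4.79%. The counts do not separate spliced from unspliced Xbp1.

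The genes of the PERK arm differed from each other in their order of classes. Atf4, its transcription factor, ranked 10 of 15 classes in plasma-like cells, with 172, 177, 238 and 150 CPM. With immunoglobulin genes left out of the total it ranked 2, with a mean of 303 CPM behind 365 CPM in B-like cells. Ddit3 (CHOP, linked to cell death under stress) ranked 11, or 6 without immunoglobulin genes, with 18.0, 23.0, 56.3 and 19.9 CPM. After thinning to 1000 UMIs, 0% to 3.77% of plasma-like cells and 3.49% to 4.58% of T-like cells held a Ddit3 UMI. Of the targets of Atf4 and Ddit3, Trib3 (a pseudokinase) had at most 3.83 CPM in plasma-like cells, Chac1 (which degrades glutathione) 11.5 to 34.9 CPM and Asns (asparagine synthetase) 16.1 to 55.8 CPM. Chac1 and Asns ranked 1 in plasma-like cells, Chac1 at 2.12 times the mean of the next class and Asns with a mean of 34.6 against 23.1 CPM, in ranges that overlapped that class. Trib3 was the 1 gene highest in hepatocyte-like cells, at 0.582, 4.15, 6.06 and 9.35 CPM, in a range that overlapped that of macrophage-like cells.

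In the translocation group, Sec61b (a subunit of the Sec61 channel) was near its highest in both plasma-like cells, at 912 to 1331 CPM, and plasmacytoid dendritic-like cells, at 1105 to 1299 CPM. Ssr4, a subunit of the TRAP complex beside the channel, had 1210, 1197, 1213 and 1512 CPM in plasma-like cells and 390 to 495 CPM in plasmacytoid dendritic-like cells. For Ssr1, another TRAP subunit, the 156 to 181 CPM in plasmacytoid dendritic-like cells lay above every counted library of all other classes, at 1.497 times the mean of plasma-like cells. Without immunoglobulin genes this order turned, with means of 183 CPM in plasma-like and 167 CPM in plasmacytoid dendritic-like cells. Sec62, another translocon gene, had 82.2, 121, 139 and 86.7 CPM in plasma-like cells and ranked 12 there, or 5 without immunoglobulin genes. Spcs1 and Spcs2, subunits of signal peptidase, had 564 to 745 CPM and 526 to 651 CPM in plasma-like cells.

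The degradation gene Derl3 and the antibody assembly cofactor Mzb1 had the largest ratios of plasma-like cells to the next class among the 43 genes. Derl3 (a derlin, part of the channel that returns misfolded proteins to the cytosol) had 406 CPM in chow (interval 345 to 474) and 250 CPM in MASH (216 to 288) at 12 weeks, and 347 (309 to 389) and 246 CPM (216 to 279) at 24 weeks. In plasmacytoid dendritic-like cells it had 0, 1.33, 3.42 and 1.60 CPM, and the mean in plasma-like cells was 157 times that of B-like cells, the next class. A Derl3 UMI was found in 84.6% to 90.9% of plasma-like cells and in at most 0.237% of T-like cells, and in 21.2% to 37.7% and at most 0.111% after thinning to 1000 UMIs. Its relatives Derl1 and Derl2 were spread more evenly, with Derl1 at 187 to 245 CPM in plasma-like and 96.7 to 118 CPM in plasmacytoid dendritic-like cells.

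Mzb1 (pERp1, which assists antibody assembly and is known from B cells, plasma cells and plasmacytoid dendritic cells) had 3142, 3235, 3255 and 2975 CPM in plasma-like cells. Its mean was 9.64 times that of B-like cells, at 327 CPM, and plasmacytoid dendritic-like cells had 235, 219, 180 and 274 CPM. Edem1 (a mannosidase-like protein that marks misfolded glycoproteins) had 308, 499, 506 and 521 CPM, 4.67 times the next class. Herpud1 (a stress-induced organizer of the degradation complex) had 758, 582, 679 and 453 CPM.

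**Figure D2:**
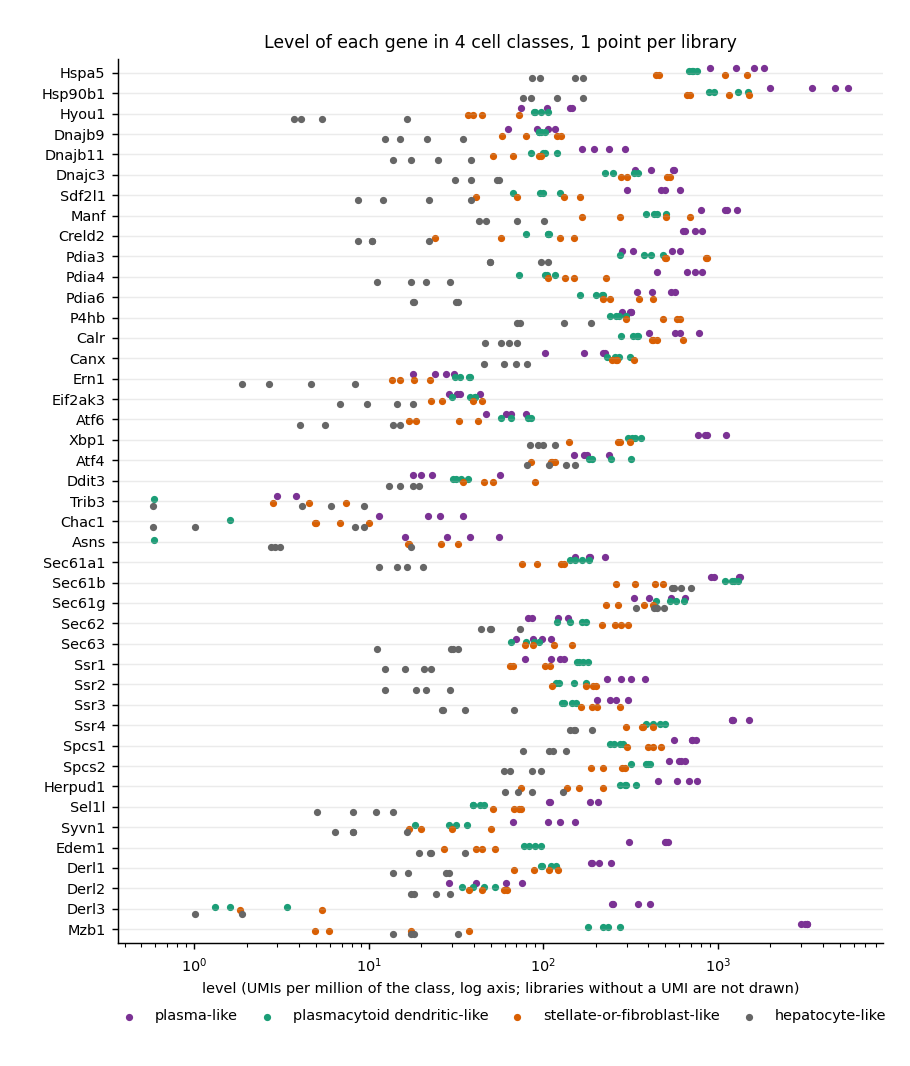
Level of each of the 43 genes in CPM on a log axis, with 1 point for each library in plasma-like (purple), plasmacytoid dendritic-like (green), stellate-or-fibroblast-like (orange) and hepatocyte-like (grey) cells. Hepatocyte-like points lie at the left for most genes, and the purple points of Derl3 and Mzb1 lie far to the right of all others.

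Hepatocyte-like cells had the lowest mean of the 15 classes for 26 of the 43 genes, and no share over all genes was counted for this either. Most of their levels were also below those of free RNA. In the MASH library at 12 weeks, the 1 library with empty droplets in its matrix, droplets of 10 to 100 UMIs gave a summed level of 6024 CPM. Only 9 of the 43 genes were higher in hepatocyte-like cells than in those droplets, against 39 in plasma-like, 35 in plasmacytoid dendritic-like and 40 in stellate-or-fibroblast-like cells. Hspa5 had 941 CPM in the droplets and 169 CPM in hepatocyte-like cells, while Mzb1 had 94.1 CPM in the droplets and 3235 CPM in plasma-like cells. In these hepatocyte-like cells 36.1% to 62.2% carried no hashtag.

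Plasma-like cells were then divided by their most abundant heavy chain gene, which is no member of the list: 71 cells were led by Igha (IgA), 56 by Ighm (IgM) and 22 by an Ighg gene (IgG). The summed level of the 43 genes was 26146 CPM in Igha cells and 17153 CPM in Ighm cells, and Ighg cells had 25144 CPM. Igha cells were higher in 4 of 4 libraries, with 22949 against 12652 and 33203 against 19178 CPM in chow and MASH at 12 weeks, and 29090 against 16617 and 19134 against 17325 CPM at 24 weeks. The difference between Igha and Ighm cells was smallest in the MASH library at 24 weeks. Ighg cells had 46610 CPM (5 cells) and 28938 CPM (6 cells) in chow and MASH at 12 weeks. At 24 weeks they had 18529 CPM (8 cells) and 16596 CPM (3 cells). An exact sign test over 4 pairs cannot give a two-sided p below 0.125, and the summed level was not tested. Each gene was tested in a fit over all genes that paired the cells by library (edgeR's quasi-likelihood test with Benjamini-Hochberg adjustment). None of 42 members passed an adjusted p of 0.05, where 0.483% of all genes passed as higher and 0.456% as lower, and 19 members had an unadjusted p under 0.05. Hsp90b1 came nearest, with a log2 difference of 1.47 ± 0.30 (SE) and an adjusted p of 0.0756 in edgeR, which ranged over the edgeR fits and DESeq2 from 8.05e-22 (DESeq2) to 0.301 (no pairing by library). In DESeq2 11 members passed as higher, and in edgeR without immunoglobulin genes 10 did.

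A gene is called higher or lower here, and in the comparisons that follow, where the ratio of CPM is at least 1.5 or at most its inverse, the interval leaves out 1 and at least 20 UMIs were counted over both sides. Between Igha and Ighm cells 12 of 42 members were called higher and 2 lower, where over all genes the rule called 5.97% higher and 11.4% lower. The median log2 ratio of the members was 0.32, against -0.08 over all genes.

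The members with the largest ratios were mostly chaperones. Hsp90b1 had 4917 CPM in Igha and 1892 CPM in Ighm cells, a ratio of 2.60 (2.48 to 2.72), with 3.42, 2.80, 2.61 and 1.99 in the 4 libraries. Hspa5 had a ratio of 1.78 (1.66 to 1.91), Pdia4 1.85, Hyou1 (an HSP70-like ER chaperone) 1.90, Manf 1.78 and Calr 1.69. Mzb1 had 3726 and 2460 CPM, a ratio of 1.51. Of 36 members with enough UMIs in all 4 libraries, 17 had a ratio above 1 in all 4, and none had a ratio below 1 in all 4. The share of all genes with ratios on the same side in all 4 libraries was not counted. Xbp1 was among the 17, with a ratio of 1.25 (1.16 to 1.36).

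No stress sensor and no gene of the PERK arm was called higher in Igha cells. Atf4 had 188 and 186 CPM, a ratio of 1.01 (0.844 to 1.21). Ern1 and Chac1 were called lower in Igha cells, with ratios of 0.475 (0.277 to 0.794) and 0.423 (0.236 to 0.735), from 24 and 20 UMIs. The 2 kinds of cell also differed in other ways: handling-stress genes summed to 7578 CPM in Igha and 10731 CPM in Ighm cells, the monocyte markers to 1213 and 2213 CPM and cell cycle genes to 838 and 431 CPM. Plasma cell markers differed too: Tnfrsf17 had 205 CPM in Igha and 47.9 CPM in Ighm cells, and Jchain 36224 and 28402 CPM. The B cell gene Ms4a1 had 28.3 and 56.7 CPM, but the B cell markers together summed to 1234 and 1046 CPM. Several hashtags were found on 39.4% of Igha and 37.5% of Ighm cells. The part of these differences in the result was not tested. Without the chow library at 24 weeks the count called higher was 8, and without the MASH library at 24 weeks it was 19.

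**Figure D3:**
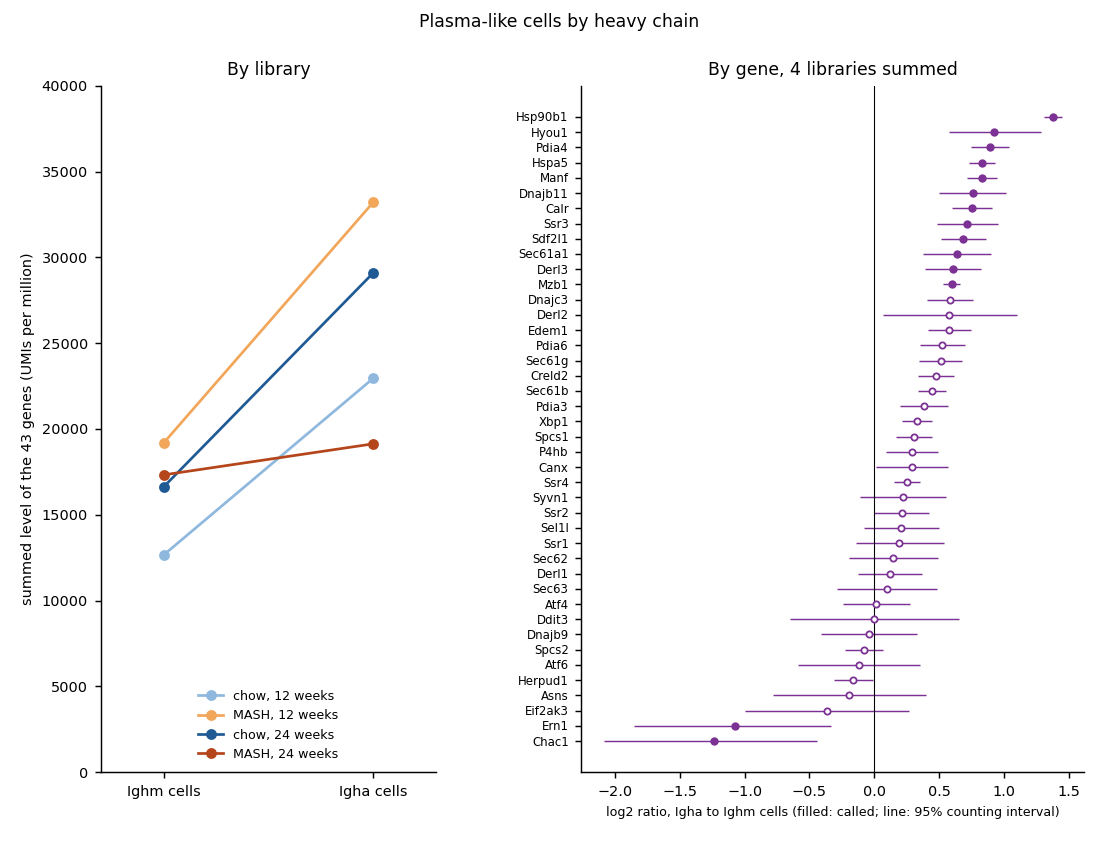
Left, summed level of the 43 genes in Ighm and Igha plasma-like cells, in CPM, with a line for each library; right, log2 ratio of Igha to Ighm cells for each gene over the 4 libraries, with the 95% counting interval and a filled point where the gene is called. All 4 lines rise to the right, and Hsp90b1 stands at the top of the genes with a ratio of 2.60.

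MASH was compared with chow within each class and week. At 12 weeks the file headers name Cell Ranger 4 for the MASH library and 5.0.1 for the chow library. Diet cannot be told apart from that version at 12 weeks. In plasma-like cells at 12 weeks 4 of 41 members were called higher in MASH and 1 lower, against 4.82% and 5.77% of all genes. The 4 were the translocon gene Sec61g (403 CPM in chow, 646 in MASH), and the degradation genes Sel1l (108, 186), Syvn1 (66.8, 125) and Edem1 (308, 499). Sel1l and Syvn1 encode the 2 core parts of the HRD1 ubiquitin ligase complex. Derl3 was called lower, with a ratio of 0.616 (0.497 to 0.764). The median log2 ratio was 0.24, against -0.01 over all genes. Cells with several hashtags made up 15.4% of this class in chow and 48.5% in MASH, and the median depth was 15032.5 and 23195 UMIs. Handling-stress genes summed to 8609 CPM in chow and 6637 CPM in MASH, with 7 of 16 called lower and 1 higher. Cell cycle genes summed to 735 and 1044 CPM. The part of these differences in the 12-week result was not tested.

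At 24 weeks the plasma-like cells went the other way: 16 of 42 members were called lower in MASH and 1 higher, where the background was 16.3% lower and 3.88% higher. The 16 held 5 of 9 chaperones and co-chaperones, both lectin chaperones and 3 of 7 degradation genes. Hspa5 had 1603 CPM in chow and 896 CPM in MASH, a ratio of 0.559 (0.513 to 0.608). Hsp90b1 had 3460 and 1996 CPM, a ratio of 0.577 (0.545 to 0.611). Asns was called higher, with 16.1 and 55.8 CPM, a ratio of 3.47 (1.91 to 6.75).

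Xbp1 and Ssr4 were not among the genes called lower at 24 weeks. Xbp1 had 841 CPM in chow and 1106 CPM in MASH, and Ssr4 had 1213 and 1512 CPM. The median of all genes was itself at -0.32 on the log2 scale in this pair, and the members' median was -0.48. With all genes centred on their own median, 4 members were called lower and 4 higher. With immunoglobulin genes left out of the total, 5 were called lower and 3 higher, and with each cell weighted equally 9 and 1. Immunoglobulin made up 36.8% of UMIs in chow and 45.8% in MASH, and the median depth was 15461 and 27082 UMIs. Cells with several hashtags made up 40% of this class in chow and 42.9% in MASH. Markers of other cell types also differed in this pair. The 8 neutrophil markers summed to 1549 CPM in chow and 14.95 CPM in MASH (S100a9 had 859 and 2.99 CPM), with Ly6g and Cxcr2 at 0 in MASH. The 9 macrophage markers summed to 5.75 and 396 CPM (C1qb had 2.30 and 194 CPM), with 7 of 9 at 0 in chow and 3 of 9, Vsig4, Timd4 and Marco, at 0 in MASH. Handling-stress genes summed to 11054 CPM in chow and 9153 CPM in MASH, with 5 of 16 called lower and 1 higher. Their part in the result was not tested.

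In plasmacytoid dendritic-like cells, the class with the most even values, 1 of 39 members was called higher at 12 weeks (Syvn1, 18.3 and 28.8 CPM) and none lower, where all genes gave 3.27% higher and 3.76% lower. At 24 weeks 2 of 39 were called higher, where all genes gave 2.9% higher, and none lower, where they gave 4.62%. These were Derl2 (34.2 and 52.7 CPM) and Mzb1 (180 and 274 CPM, a ratio of 1.53 with the interval 1.35 to 1.73). The median log2 ratio was -0.03 at 12 weeks and 0.12 at 24 weeks. No member was called the same way at both weeks.

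In stellate-or-fibroblast-like cells at 12 weeks 4 of 42 members were called higher in MASH and 2 lower, against 6.77% and 9.16% of all genes. Pdia4 had 107 CPM in chow and 227 CPM in MASH, a ratio of 2.13 (1.57 to 2.96), and the other 3 were Sec61g, Syvn1 and Hyou1. Ddit3 was called lower, with 89.4 and 45.7 CPM. At 24 weeks 8 of 41 were called higher and 2 lower, against 7.45% and 11.3% of all genes. P4hb had 297 and 582 CPM, a ratio of 1.96 (1.58 to 2.46), and Xbp1 had 140 and 277 CPM, a ratio of 1.98 (1.44 to 2.78). The other 6 were the co-chaperones Manf and Creld2, the channel subunits Sec61a1 and Sec61b, Ssr2 and Spcs1. No member was called higher at both weeks.

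Mzb1 was called lower in MASH stellate-or-fibroblast-like cells at both weeks, from 7 against 19 UMIs at 12 weeks and 11 against 13 UMIs at 24 weeks, chow before MASH. The chow class at 24 weeks, which has 40 cells, also held immunoglobulin constant genes at 1206 CPM, against 152 to 181 CPM in the other libraries. In the same class 9 of 11 cell cycle genes at 12 weeks and 10 of 11 at 24 weeks were called higher in MASH. Handling-stress genes summed to 8130 CPM in chow and 10286 CPM in MASH at 12 weeks, and to 11616 and 7743 CPM at 24 weeks. The part of these genes in the result was not tested.

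In hepatocyte-like cells P4hb was the 1 member called higher in MASH at both weeks. It had 73.4 and 188 CPM in chow and MASH at 12 weeks, a ratio of 2.57 (1.998 to 3.30), and 71.0 and 132 CPM at 24 weeks, a ratio of 1.85 (1.52 to 2.25). Its level in the empty droplets was 141 CPM. In all, 6 of 37 members were called higher and 1 lower at 12 weeks, against 8.15% and 5.58% of all genes, and 6 of 40 higher and 4 lower at 24 weeks, against 15.8% and 4.72%. The 5 others called higher at 12 weeks were Dnajb11, Ssr3, Herpud1, Creld2 and Sdf2l1. The class's own markers also differed at 12 weeks: the 10 markers summed to 18309 CPM in chow and 22950 CPM in MASH, where Alb had 3493 and 7427, Apoa1 994 and 2990 and Ass1 7580 and 2268 CPM. Over the MASH hashtags at 12 weeks the members summed to 5002 CPM in 26 cells of 1 hashtag and to 2991 and 2893 CPM in the other two, against 2696 to 2950 CPM over the chow hashtags. The part of these differences in the result was not tested.

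Asns and Sec63 were among the 4 called lower at 24 weeks. Asns had 17.5 CPM in chow and 3.12 CPM in MASH, from 52 and 5 UMIs, and Sec63 (a translocon partner of BiP) had 32.6 and 11.2 CPM. The others were Atf4 (135 and 80.4 CPM) and Dnajb11. Mzb1 was among the 6 called higher, but its log2 ratio was -0.19 without doublet removal and -0.22 over cells with a single hashtag. The median of all genes was at 0.19 in this pair, and with all genes centred on their own median 4 members were called higher and 6 lower. At 24 weeks 8 of 9 cell cycle genes were called higher in MASH in this class.

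**Figure D4:**
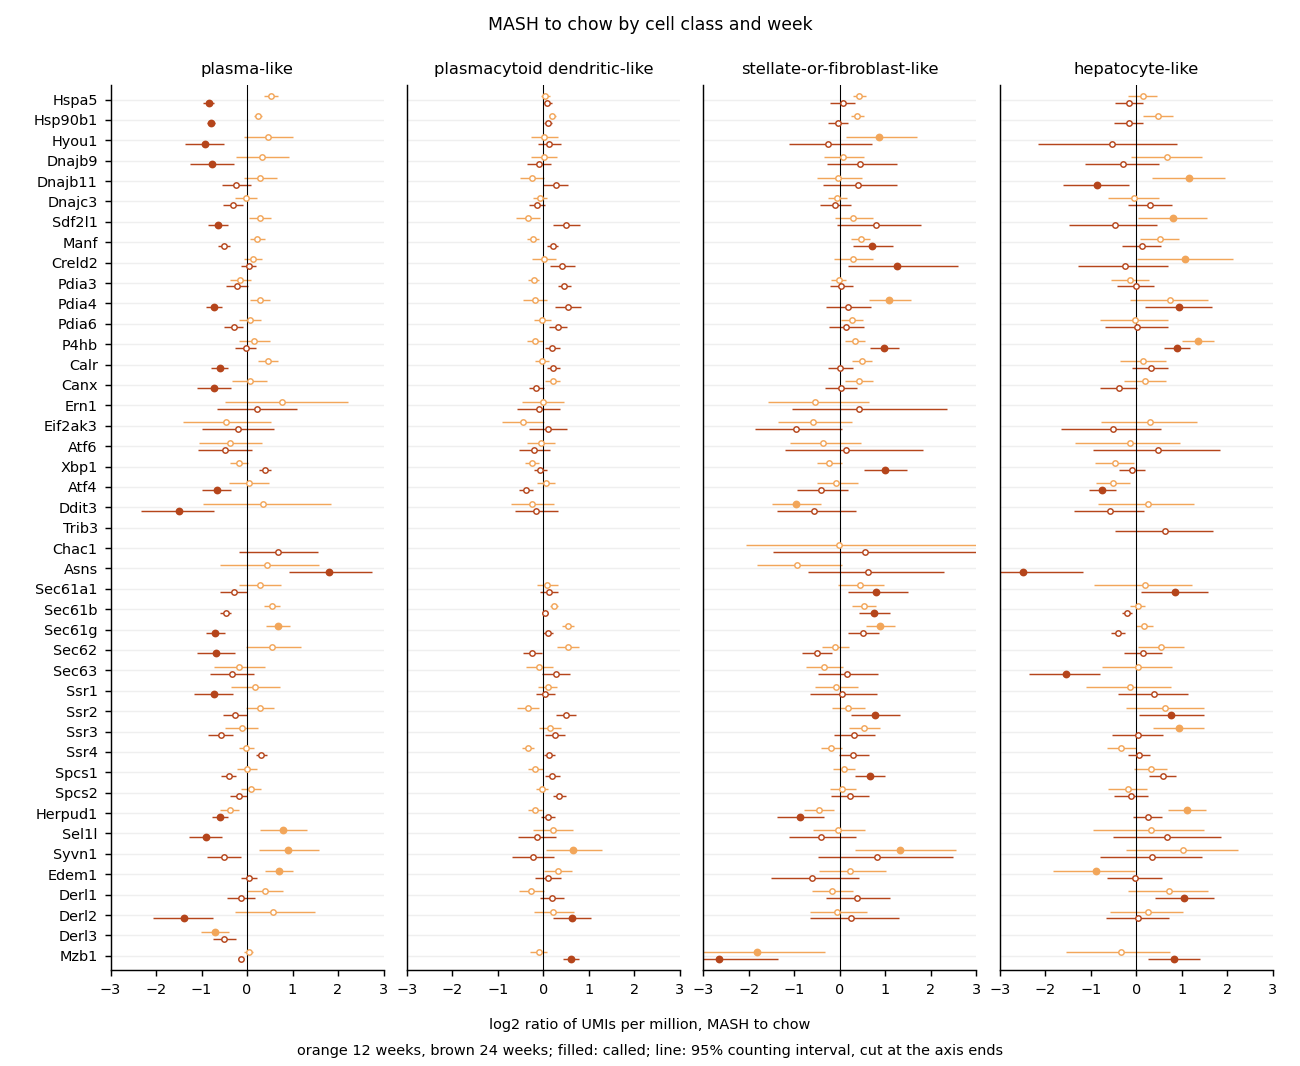
Log2 ratio of MASH to chow for each gene in 4 classes, at 12 weeks (orange) and 24 weeks (brown), with the 95% counting interval, which is cut at the axis ends; filled points are called. In plasma-like cells most brown points lie left of 0 and most orange points right of it, while in plasmacytoid dendritic-like cells both lie near 0.

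Another 71 genes of the same pathways, listed by role, were counted in the same way. In hepatocyte-like cells 9 of 58 were called higher in MASH at 12 weeks and 12 of 58 at 24 weeks, with none lower, where the rule called 8.15% and 15.8% of all genes higher. The vesicle export and retrieval genes gave 5 of 15 and 7 of 15 of these, among them the COPII coat genes Sec24d (ratios of 1.85 and 1.74) and Sar1b (1.73 and 1.54), called at both weeks. In stellate-or-fibroblast-like cells 4 of 69 were higher and 2 lower at 12 weeks, and 7 of 66 higher and 4 lower at 24 weeks. Fkbp11, an ER proline isomerase, was called higher at both weeks there, with ratios of 2.50 (1.44 to 4.75) and 3.31 (1.25 to 12.4), the last from 4 UMIs in chow. In plasma-like cells 1 of 58 was higher and 2 lower at 12 weeks, and 1 of 60 higher and 8 lower at 24 weeks, and in plasmacytoid dendritic-like cells 0 and 1 of 64 and then 2 and 0 of 64. The shares of all genes called in each of these pairs are those given above for the members. In the other classes, 10 more calls had the same direction at both weeks, with no share of all genes beside them. The macrophage-like and erythroid-like calls at 24 weeks rest on 22 and 38 cells in chow. Cebpb was higher in macrophage-like, Slc7a11 in conventional dendritic-like, Ero1l in neutrophil-like and Atf3 in erythroid-like cells, while Atf3 was lower in basophil-or-mast-like cells. In cholangiocyte-like cells Creb3l3, Vldlr and Lman1 were higher and Creb3l2 and Cebpb lower.

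The summed level of the 43 genes was lower at 24 than at 12 weeks in every class, but not that of each group of genes. It was lower in 15 of 15 classes in chow, with ratios from 0.644 to 0.987, and in 15 of 15 in MASH, with ratios from 0.639 to 0.965. Week cannot be told apart from library preparation here, since all cells of a week and diet came from 1 library. The MASH library at 12 weeks was also made with another version of Cell Ranger, per the file headers. In chow, where the version was the same at both weeks, the median ratio was 0.843, and in MASH it was 0.822. The 5 Sec61 translocon genes had a higher summed level at 24 weeks in chow plasma-like (1660 and 2312 CPM), plasmacytoid dendritic-like (1902 and 2136 CPM) and hepatocyte-like cells (1073 and 1240 CPM), and a lower one in these classes in MASH.

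Stellate-or-fibroblast-like cells had the lowest ratio in chow. There 16 of the 43 members were called lower at 24 weeks in chow and 16 of 43 in MASH, against 9.84% and 12.9% of all genes. The shares are of genes with at least 20 UMIs, while the 43 also hold members with too few UMIs to be called. Mzb1 in chow, with 7 and 11 UMIs, was such a member. In both diets 10 were called lower: Hspa5, Hsp90b1, Dnajb9, Dnajc3, Sdf2l1, Manf, Creld2, Pdia3, Pdia6 and Herpud1. No share of all genes called lower in both diets stands beside this count. Hspa5 had 1098 CPM at 12 weeks and 444 CPM at 24 weeks in chow, a ratio of 0.404 (0.330 to 0.493). In MASH it had 1477 and 463 CPM, a ratio of 0.314 (0.293 to 0.335). Manf had 504 and 167 CPM in chow and 693 and 274 CPM in MASH. All 10 are chaperones, disulfide isomerases or, in Herpud1, a stress-induced degradation gene, and no translocon, TRAP or signal peptidase gene was among them.

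Hsp90b1 was called lower at 24 weeks in both diets in 10 of the 15 classes, Pdia3 in 8 and Sdf2l1 in 7, the largest counts among the 43 genes. No share of all genes called lower in both diets stands beside these counts. Chow at 24 weeks held only 22 macrophage-like and 38 erythroid-like cells. In endothelial-like cells Hsp90b1 had 1084 and 648 CPM in chow and 1327 and 597 CPM in MASH, at 12 and 24 weeks. Over the 15 classes the rule called 3.02% to 17.7% of all genes lower in chow and 3.86% to 17.7% in MASH. Hepatocyte-like cells had 11 of the 43 members lower in chow and 13 of 43 in MASH, against 17.7% and 11.7% of all genes. Here too the 43 hold members with too few UMIs to be called, which the shares leave out. Hspa5, Sdf2l1, Manf and Pdia3, 4 in all, were lower in both diets.

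Plasma-like and plasmacytoid dendritic-like cells had few members called lower at 24 weeks in chow. In chow plasma-like cells 1 of 42 members was called lower at 24 weeks and 6 of 42 higher, against 6.05% and 5.84% of all genes. In MASH plasma-like cells 18 of 42 were called lower, against 17.7% of all genes. In plasmacytoid dendritic-like cells 3 of 39 members were lower in chow and 1 of 39 in MASH, against 3.7% and 6.34% of all genes. Genes known to respond to tissue handling also moved with week: in chow 13 of 16 were called higher at 24 weeks in plasmacytoid dendritic-like, 9 in stellate-or-fibroblast-like and 9 in hepatocyte-like cells, and none lower, where 6.03%, 7.69% and 4.5% of all genes were called higher. In MASH 8 of 16 were called higher in plasmacytoid dendritic-like cells and 7 of 15 in hepatocyte-like cells, against 7.51% and 8.19% of all genes, and 2 lower in each. In MASH stellate-or-fibroblast-like cells 2 were higher, against 6.47% of all genes, and 5 lower, with a summed level of 10286 CPM at 12 weeks and 7743 CPM at 24 weeks. In chow plasma-like cells 6 of 16 were higher and 1 lower, against 5.84% and 6.05% of all genes. In MASH plasma-like cells 10 of 16 of these genes were higher and 3 lower, where 17.7% of all genes were called lower. Their summed level there was 6637 CPM at 12 weeks and 9153 CPM at 24 weeks. Their part in the result was not tested.

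**Figure D5:**
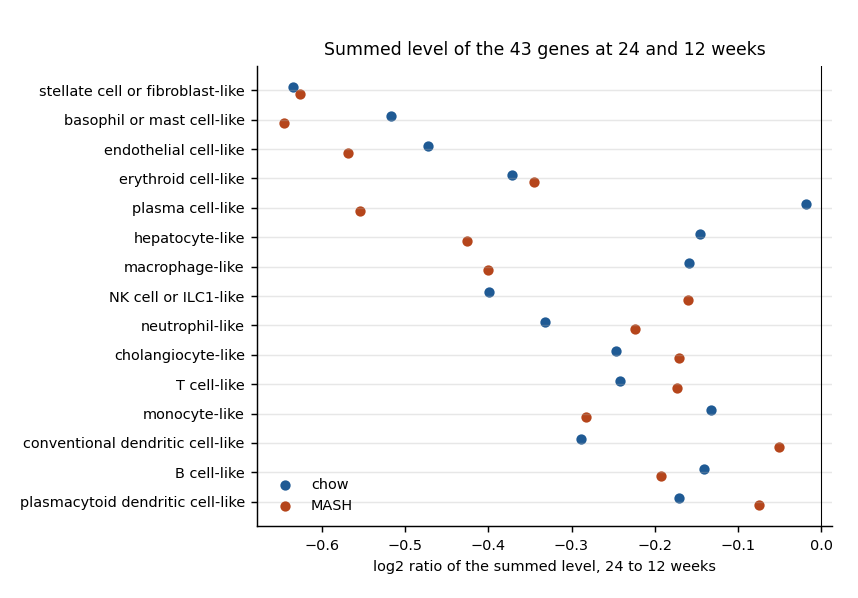
Log2 ratio of the summed level of the 43 genes at 24 weeks to that at 12 weeks in 15 classes, in chow (blue) and MASH (orange-brown). All 30 points lie left of 0, and stellate-or-fibroblast-like cells have the lowest chow point, a ratio of 0.644.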

How the data were processed

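Raw UMI counts per gene and cell were deposited by the authors as 10x matrices, made with Cell Ranger 5.0.1, or version 4 for the MASH library at 12 weeks, per the file headers; the builds mm10 and GRCh38 are named in the submitters' processing notes. That library's matrix had 737280 barcodes and a list of 19014 names that was not used. Cells had at least 500 gene UMIs, 300 genes and at most 15% mitochondrial UMIs. Scrublet doublets were removed; Leiden clusters (scanpy 1.11.5, 2000 variable genes without the members and listed pathway genes, 30 components, 15 neighbours, resolution 1) were named from 16 marker sets, plasma-like cells by the immunoglobulin rule. UMIs were summed per class and library. Ratios have exact conditional binomial intervals, shares exact binomial and levels exact Poisson ones. With 1 library per group neither diet nor week was tested. Igha and Ighm cells, summed per library, were compared over all genes with at least 20 UMIs by edgeR 4.0.16 (TMM, library as block) and DESeq2 1.42.0, a test added after the data were seen. The scripts were tested on simulated data. All 43 members were named, and other pathway genes where called the same way at both weeks. Alternatives were other scalings, filters, doublet and hashtag rules and left-out libraries. Members and lists were chosen with earlier results of these data known. A gene with 2 rows, Ddit3, had UMIs in 1 of them. Protein sequences were not used here.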

Additional observations from a re-analysis of the deposited data

Results flagged for a closer look

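3 genes were called in opposite directions at the 2 weeks in the same class. The difference between weeks was not tested, since each group is 1 library. In plasma-like cells the MASH to chow ratio of Sec61g was 1.60 at 12 weeks and 0.617 at 24 weeks, and that of Sel1l was 1.73 and 0.533. At 24 weeks Sec61g was no longer called with all genes centred on their own median (a log2 ratio of -0.38), with immunoglobulin genes left out of the total (-0.47) or with cells weighted equally (-0.33). In hepatocyte-like cells the ratio of Dnajb11 was 2.22 at 12 weeks and 0.551 at 24 weeks, from 22 to 74 UMIs in each library. Its log2 ratio at 24 weeks, -0.86, was -0.26 without doublet removal and -0.36 with cells weighted equally.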

How the results depend on the processing

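No paired analysis was possible because each group is 1 library, as far as diet and week go. Igha and Ighm cells were paired by library: 0 of 42 members passed in edgeR as higher and 0 as lower, also without the replicate block, with DESeq2 size factors in edgeR and without each library in turn (0 to 0), but 4 passed as higher without the filter on UMIs, 10 without immunoglobulin genes and 11 in DESeq2. The median log2 ratio of plasma-like cells at 24 weeks, -0.48, was -0.16 with all genes centred on their own median, which lies at -0.32, and -0.18 with cells weighted equally. The log2 ratio of Mzb1 in hepatocyte-like cells at 24 weeks turned to -0.19 without doublet removal and -0.22 over cells with a single hashtag. The mean summed level was 37419 CPM in plasma-like cells with immunoglobulin genes left out, and, without doublet removal, 9308 CPM in plasmacytoid dendritic-like and 3200 CPM in hepatocyte-like cells. Leaving out 1 library at a time gave a median log2 ratio of Igha to Ighm cells of 0.31 to 0.54. Over the alternatives, members called higher and lower ranged from 0 to 9 and 0 to 1 in plasma-like cells at 12 weeks (reported as 4 and 1) and from 0 to 4 and 2 to 16 at 24 weeks (1 and 16). In hepatocyte-like cells the ranges were 3 to 9 and 0 to 4 at 12 weeks (6 and 1), and 1 to 7 and 1 to 6 at 24 weeks (6 and 4). In stellate-or-fibroblast-like cells they were 1 to 4 and 0 to 2 at 12 weeks (4 and 2), and 1 to 11 and 1 to 3 at 24 weeks (8 and 2), and between Igha and Ighm cells 8 to 19 and 0 to 2 (12 and 2). Of the single-gene values 625 moved by less than their interval, 38 by more and 2 changed sign. Chow hashtags 1 to 4 at 24 weeks were not run for plasma-like or stellate-or-fibroblast-like cells and hashtags 5 to 8 not for the latter, for lack of cells. The alternatives for plasma-like and heavy chain groups were chosen after seeing the data.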
